A study of Homo sapiens with 12 samples.

Results

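The genes described here are 9 transcriptional targets of p53 that act in redox balance, sugar and lipid metabolism, autophagy, mitochondrial upkeep and cell membranes, namely TP53I3, TIGAR, ACER2, TP53INP1, DRAM1, SPATA18, FDXR, CMBL and NINJ1. They were chosen by name and not by a cut on their values, but with earlier results of these data known. Every probe set annotated to exactly 1 of these symbols was taken, which gave 13 of 54675 probe sets and covered 8 of the 9 genes. FDXR, the ferredoxin reductase of the mitochondrion, had no such probe set and is not analysed here. All 8 measured genes were among the 12689 of 19775 genes that were bright enough to test, and all had passed on arrays that got no SGI-110 as well, where TP53INP1 exceeded the array median in 4 of 6 arrays, TP53I3 and ACER2 in 5 and the other members in 6.

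All samples were ML-2, an established human acute myeloid leukaemia cell line, and each of 4 groups held 3 Affymetrix arrays from 3 independent experiments. The SGI-110 group received 2 µM SGI-110 (guadecitabine, a hypomethylating agent that releases decitabine) for 33 h. The combination group received 2 µM SGI-110 for 24 h and then 5 µM ASTX660, an antagonist of inhibitor of apoptosis proteins, for 9 h. The ASTX660 group received solvent first and 5 µM ASTX660 for the last 9 h, and the solvent group received solvent at both steps. The sources used here do not say if SGI-110 was left on the cells while ASTX660 acted, so a shorter exposure to SGI-110 and the addition of ASTX660 cannot be told apart in the combination. A single cell line limits what the groups stand for. The arrays of a group carry the numbers 2, 9 and 13 in their titles, and these numbers have no order.

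p53 is a transcription factor that is held at a low level by MDM2 and accumulates after DNA damage and other stress. Besides genes of cell cycle arrest and apoptosis it switches on enzymes that shift sugar use towards the pentose phosphate pathway, that turn over ceramide and that handle quinones, together with proteins that promote autophagy, the digestion of cell contents in lysosomes. Decitabine, which SGI-110 releases, is built into DNA and traps DNA methyltransferases there, which both lowers methylation at CG dinucleotides and damages DNA.

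The promoters show how differently these genes are furnished with the CG dinucleotides at which DNA is methylated. RefSeq sequences of the 250 bases upstream of the start (build GRCh38.p14) were matched for 6 of the 8 measured members, all except TP53INP1 and CMBL. Those of the member that changed most (TP53I3), of a CG-rich pair that rose less (ACER2 and TIGAR) and of the member that did not rise (SPATA18) are shown, 5′ to 3′ in the direction of the gene, with every CG in capitals. TP53I3 lies at chr2:24084835-24085084, minus strand, ACER2 at chr9:19408759-19409008, plus strand, TIGAR at chr12:4320963-4321212, plus strand, and SPATA18 at chr4:52051054-52051303, plus strand.
TP53I3: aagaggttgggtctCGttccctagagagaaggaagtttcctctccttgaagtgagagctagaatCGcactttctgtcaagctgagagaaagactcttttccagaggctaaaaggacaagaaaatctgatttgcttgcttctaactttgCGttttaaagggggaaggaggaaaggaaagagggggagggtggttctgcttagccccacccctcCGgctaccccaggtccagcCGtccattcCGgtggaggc
ACER2: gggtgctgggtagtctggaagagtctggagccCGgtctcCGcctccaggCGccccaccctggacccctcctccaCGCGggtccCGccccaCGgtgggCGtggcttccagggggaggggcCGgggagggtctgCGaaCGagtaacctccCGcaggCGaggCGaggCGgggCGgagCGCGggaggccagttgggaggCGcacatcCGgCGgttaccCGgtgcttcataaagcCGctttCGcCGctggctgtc
TIGAR: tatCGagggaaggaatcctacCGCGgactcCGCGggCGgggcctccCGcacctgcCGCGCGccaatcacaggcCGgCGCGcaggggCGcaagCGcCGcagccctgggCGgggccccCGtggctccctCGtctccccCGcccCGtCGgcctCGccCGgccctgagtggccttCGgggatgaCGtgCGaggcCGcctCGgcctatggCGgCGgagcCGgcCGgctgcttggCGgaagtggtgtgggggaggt
SPATA18: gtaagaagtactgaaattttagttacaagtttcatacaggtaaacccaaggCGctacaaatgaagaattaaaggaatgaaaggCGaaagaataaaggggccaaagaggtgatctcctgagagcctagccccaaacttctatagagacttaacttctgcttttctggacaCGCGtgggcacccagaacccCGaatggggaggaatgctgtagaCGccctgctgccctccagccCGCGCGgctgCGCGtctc
The TP53I3 stretch held 6 CG dinucleotides and the SPATA18 stretch 11, against a median of 11 over 35116 RefSeq promoters of the same length. ACER2 held 25, NINJ1 held 32, and TIGAR and DRAM1 held 34 each, and 93.2% of all promoters held fewer than these last. The p53 half-site consensus, read on both strands, was matched exactly in 0 of the 6 stretches, against 5.57% of all promoters. With 1 mismatch allowed it was matched in 3 of 6, TP53I3, DRAM1 and SPATA18, against 57.5% of all promoters. A match or its absence in this window is a description of its letters. Methylation was not measured here.

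Across the series, principal component 1 (51.2% of the variance) followed SGI-110. Arrays numbered 13 lay away from the rest on component 2 (13.9%), and ASTX660 array 2 did so on component 3 (11.7%). The 3′ minus 5′ differences of the GAPDH and ACTB control probe sets ran from −0.10 to 0.08 and overlapped between groups. Of 10 myeloid markers 8 were on the array, 6 of them above the median on all arrays, with MPO at 13.14 to 13.49 and LYZ at 13.02 to 13.45, whereas MEIS1 was below the median on all arrays. Their mean level was 8.68 to 8.73 in SGI-110, 8.67 to 8.74 in combination, 8.44 to 8.50 in ASTX660 and 8.42 to 8.53 in solvent arrays, so it was higher in both groups with SGI-110, and its part in the members' changes was not tested. Mean levels of erythroid, lymphoid and fibroblast markers overlapped between SGI-110 and solvent arrays, fibroblast markers were lower in combination (5.11 to 5.18) than in solvent arrays (5.23 to 5.33), and 0 of 3 epithelial markers were above the median on any array. The lymphoid CD3E and CD79A, the erythroid HBB and the fibroblast COL1A1 (7.33 to 7.92) were also above the median on all 12 arrays. A level above the median therefore does not tell cell types apart here. Fewer cells with a transcript and less transcript per cell cannot be told apart in such bulk RNA.

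SGI-110 raised 6 of the 8 measured members, where 9.5% of all 12689 tested genes rose by the same test. The NADPH quinone reductase-like gene TP53I3 rose 14.1-fold, the autophagy gene TP53INP1 4.81-fold and the alkaline ceramidase gene ACER2 2.34-fold, and DRAM1, TIGAR and NINJ1 rose 1.51- to 1.74-fold. CMBL and SPATA18 did not pass the test on the probe set that stands for each gene. The combination gave the same 6 genes nearly equal changes. With ASTX660 alone none of the 8 passed the test, and 0 of all 12689 tested genes did.

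**Figure D1:**
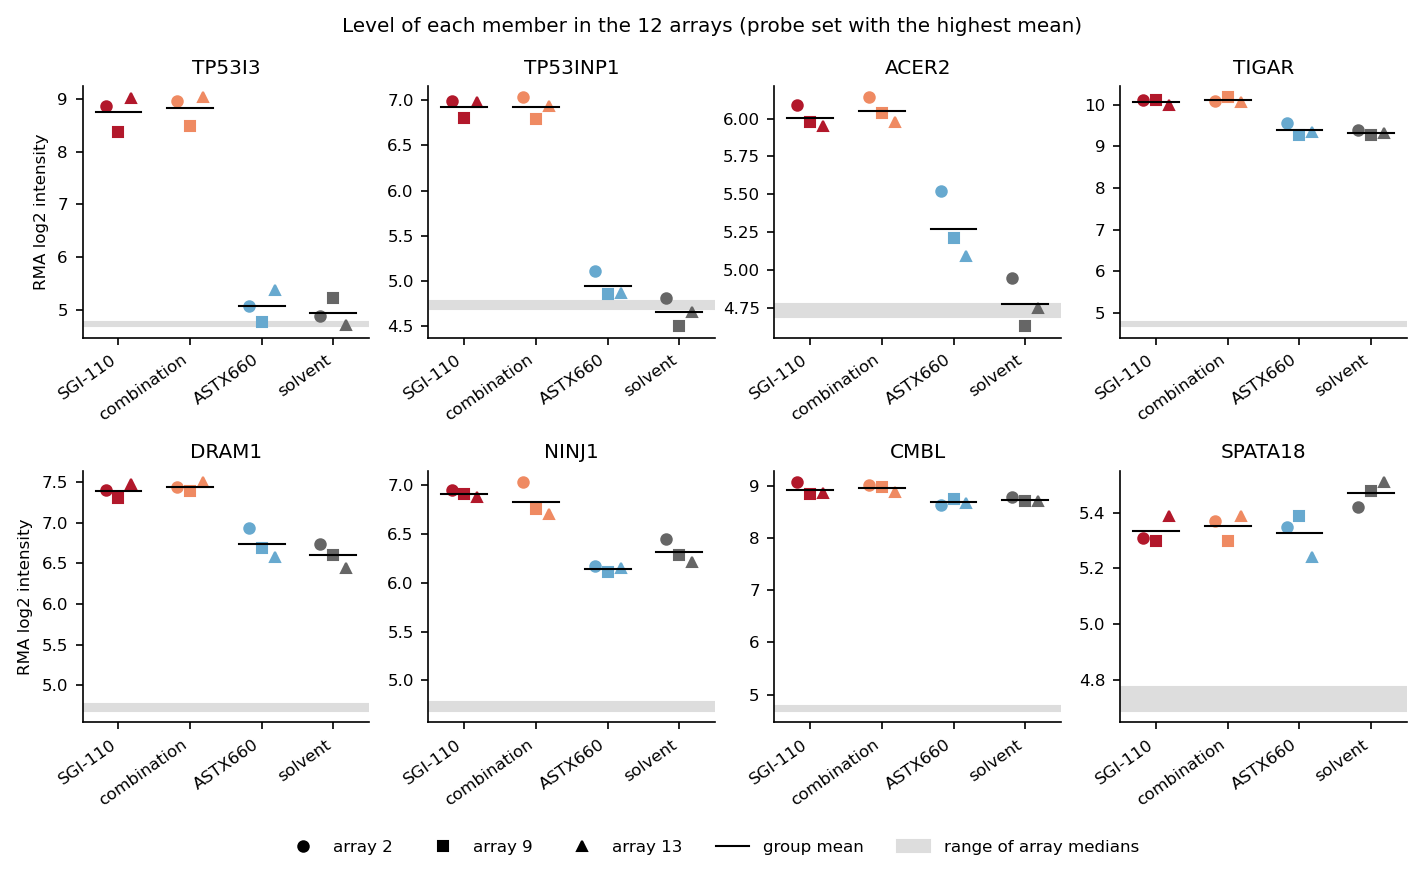
RMA log2 intensity (vertical axis) of the 8 measured members in SGI-110, combination, ASTX660 and solvent arrays. Circles, squares and triangles are arrays 2, 9 and 13, black lines are group means, and the grey band is the range of the array medians (4.688 to 4.774). In TP53I3, TP53INP1, ACER2, TIGAR, DRAM1 and NINJ1, and narrowly in CMBL, all 6 arrays with SGI-110 sit above all 6 without it. In SPATA18 they do not. The share of all tested genes that separate in this way is not given here, so this describes the members only.

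In this text a gene was called when its limma p, adjusted by Benjamini-Hochberg over the 12689 genes tested, was under 0.05, and levels and changes are on the RMA log2 scale. By that rule 6 of 8 members were higher in SGI-110 than in solvent arrays, where 9.5% of all tested genes were called higher, 5.9% lower and 15.4% either way. Of those calls 61.7% were higher, or 43.6% after centring each array on the tested genes, which moved the median change of all genes to −0.04. The 3 SGI-110 arrays all lay above the 3 solvent arrays for 7 of 8 members (19.5% of all genes), and all lay below for SPATA18 (16.6% of all genes). The median change of the 8 members was 0.77, against 0.00 over all tested genes. The members stood at very different places in the order of all genes by change. TP53I3 stood at rank 2 from the top of 12689 and TP53INP1 at rank 5, ACER2 stood at rank 57, DRAM1, TIGAR and NINJ1 at ranks 160, 184 and 304, CMBL at 1945 and SPATA18 at 10537. The CMBL rank is that of its brightest probe set. Its other probe sets, 227522_at and the dim 230995_at, stood at ranks 26 and 33851 of 41091 probe sets.

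TP53I3 encodes an oxidoreductase related to quinone reductases that generates reactive oxygen species in cells dying by p53. It read 8.87, 8.37 and 9.02 on SGI-110 arrays 2, 9 and 13, and 8.96, 8.48 and 9.03 on the combination arrays. ASTX660 arrays read 5.06, 4.77 and 5.38, and solvent arrays 4.87, 5.23 and 4.71. The 6 arrays with SGI-110 and the 6 without it were far apart and did not overlap, and the array numbered 9 was the lowest of the 3 in both SGI-110 groups and the highest in the solvent group. The mean was 8.75 ± 0.336 in SGI-110 and 4.93 ± 0.27 in solvent arrays (SD, n = 3 each), a change of 3.82 (SE 0.197, 14.1-fold, limma adjusted p = 5.84e-08). The combination against solvent gave 3.89 (14.8-fold, limma adjusted p = 4.59e-08), which was the highest change of all 12689 genes in that comparison. The solvent level lay close to the array median, and on solvent array 13 it lay below, so the size of the fold depends on a level near background.

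TIGAR encodes a phosphatase that removes a fructose bisphosphate which drives glycolysis, and so slows glycolysis. Its arrays read 10.1, 10.1 and 10.0 in SGI-110, 10.09, 10.17 and 10.05 in the combination, 9.56, 9.27 and 9.34 in ASTX660, and 9.39, 9.26 and 9.32 in solvent. The SGI-110 groups lay within a narrow band above all other arrays. The change was 0.75 with SGI-110 (SE 0.072, 1.68-fold, limma adjusted p = 2.02e-05) and 0.78 with the combination (1.72-fold, limma adjusted p = 1.29e-05). ASTX660 array 2 was the highest of the 6 arrays without SGI-110.

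ACER2 encodes the Golgi alkaline ceramidase, which splits ceramide into sphingosine and a fatty acid. It read 6.09, 5.98 and 5.95 in SGI-110, 6.14, 6.04 and 5.98 in the combination, 5.52, 5.21 and 5.09 in ASTX660, and 4.95, 4.63 and 4.75 in solvent. The ASTX660 arrays stood between the others, above every solvent array and below every array with SGI-110, and array 2 was the highest in each of the 4 groups. The solvent level lay close to the array median, and on solvent array 9 it lay below, so this fold starts near background. The change was 1.23 with SGI-110 (SE 0.112, 2.34-fold, limma adjusted p = 1.41e-05) and 1.28 with the combination (2.43-fold, limma adjusted p = 9.41e-06).

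TP53INP1, whose product moves to autophagosomes under stress and also aids p53 in the nucleus, read 6.99, 6.80 and 6.98 in SGI-110, 7.03, 6.79 and 6.94 in the combination, 5.11, 4.85 and 4.87 in ASTX660, and 4.81, 4.50 and 4.66 in solvent. Groups with SGI-110 stood about equally far above groups without it on every array. The change was 2.27 with SGI-110 (SE 0.104, 4.81-fold, limma adjusted p = 4.68e-08) and 2.26 with the combination (4.79-fold, limma adjusted p = 4.59e-08). Solvent arrays 9 and 13 lay below their array medians, so its fold too starts near background.

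DRAM1, a lysosomal membrane protein needed for autophagy induced by p53, read 7.40, 7.31 and 7.48 in SGI-110, 7.44, 7.39 and 7.50 in the combination, 6.94, 6.69 and 6.58 in ASTX660, and 6.74, 6.61 and 6.45 in solvent. It changed by 0.80 with SGI-110 (SE 0.0977, 1.74-fold, limma adjusted p = 0.000136) and by 0.84 with the combination (1.79-fold, limma adjusted p = 8.07e-05). Within the numbers the SGI-110 difference was 0.67, 0.70 and 1.02 for arrays 2, 9 and 13, so all 3 were higher. NINJ1, a cell surface protein that ruptures the plasma membrane of dying cells, read 6.95, 6.91 and 6.88 in SGI-110, 7.03, 6.76 and 6.70 in the combination, 6.17, 6.11 and 6.15 in ASTX660, and 6.45, 6.28 and 6.21 in solvent. Its change was 0.60 with SGI-110 (SE 0.0909, 1.51-fold, limma adjusted p = 0.000655) and 0.51 with the combination (1.43-fold, limma adjusted p = 0.00174). All 3 of its ASTX660 arrays lay below the solvent arrays.

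SPATA18, whose product takes part in the removal of damaged proteins from mitochondria, did not rise on either of its probe sets. It read 5.31, 5.30 and 5.39 in SGI-110, 5.37, 5.30 and 5.39 in the combination, 5.35, 5.39 and 5.24 in ASTX660, and 5.42, 5.48 and 5.51 in solvent. Every treated array lay slightly below every solvent array, by less than the test could call, with values of −0.13 for SGI-110 (SE 0.0766, limma adjusted p = 0.285), −0.12 for the combination (limma adjusted p = 0.31) and −0.14 for ASTX660 (limma adjusted p = 0.729). Its 95% interval for SGI-110 ran from −0.30 to 0.03. Its other probe set, 229331_at, was dim, with group means of 2.55, 2.69, 2.58 and 2.51 in SGI-110, combination, ASTX660 and solvent arrays.

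CMBL, a cytosolic hydrolase, gave a different answer on each of its 3 probe sets. The brightest, 234981_x_at, stood for the gene by the rule. Its suffix marks probes that can bind other transcripts. It read 9.07, 8.85 and 8.86 in SGI-110, 9.02, 8.98 and 8.89 in the combination, 8.63, 8.75 and 8.68 in ASTX660, and 8.79, 8.71 and 8.71 in solvent. All arrays with SGI-110 lay above the rest but close to them. The change was 0.19 with SGI-110 (SE 0.0687, 1.14-fold, limma adjusted p = 0.0826, or 0.0307 with the title number as a block) and 0.23 with the combination (1.17-fold, limma adjusted p = 0.0341). The second probe set, 227522_at, read 7.01, 6.96 and 6.54 in SGI-110, 6.79, 6.83 and 6.71 in the combination, 5.17, 5.26 and 4.91 in ASTX660, and 5.26, 5.30 and 4.87 in solvent. On this probe set the arrays with SGI-110 stood far above those without it. In a fit over all 41091 probe sets with 1 symbol, 227522_at changed by 1.69 with SGI-110 (SE 0.139, 3.23-fold, limma adjusted p = 2.64e-06) and by 1.63 with the combination (3.10-fold, limma adjusted p = 2.98e-06). The third, 230995_at, stayed below the array median on all arrays and stood at −0.12 with SGI-110 (limma adjusted p = 0.646).

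**Figure D2:**
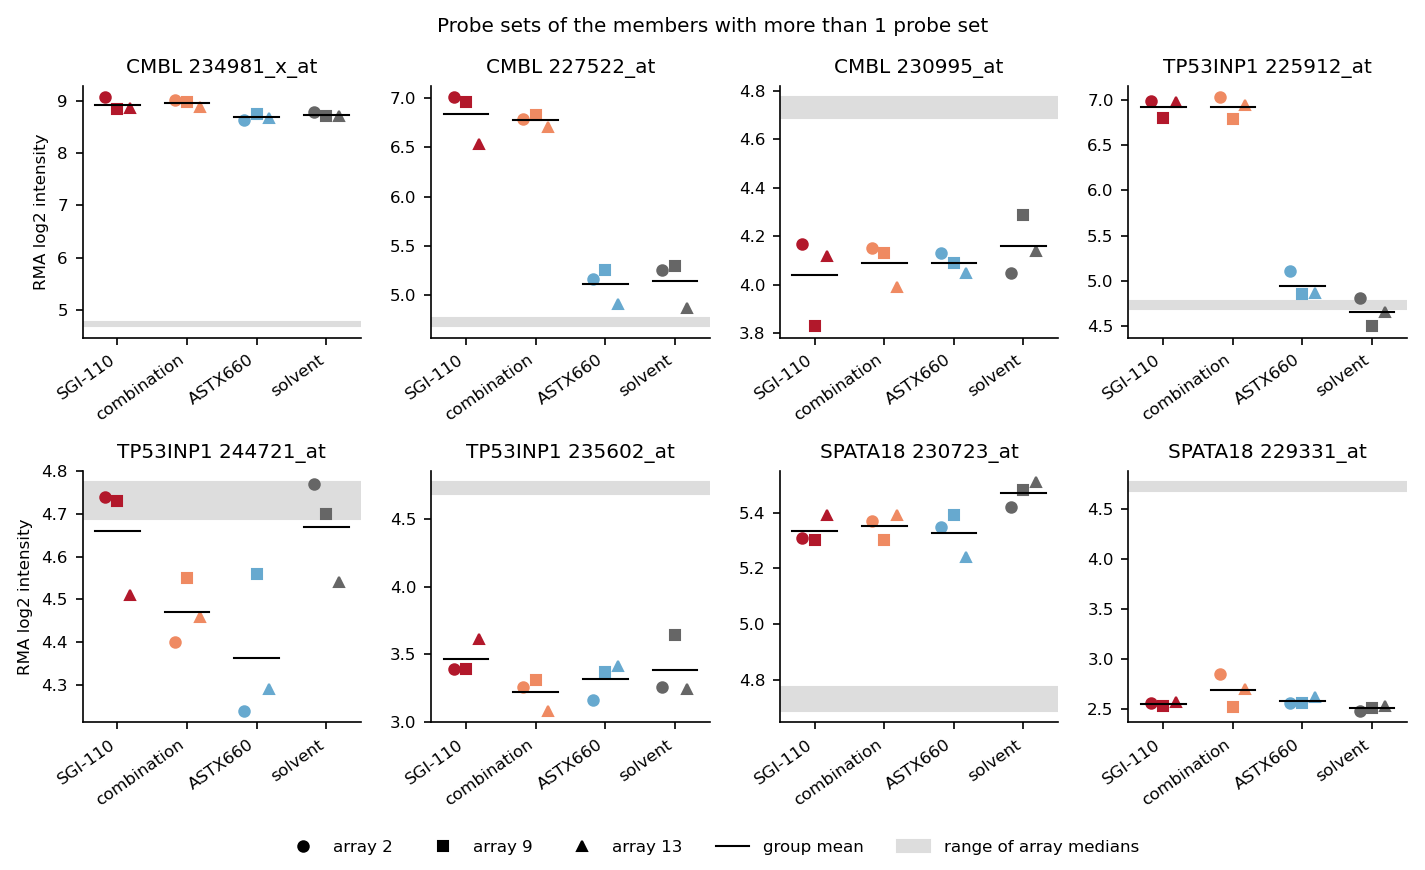
RMA log2 intensity (vertical axis) of the 8 probe sets of the members with more than 1 probe set, by group, with symbols for arrays 2, 9 and 13, black lines for group means and a grey band for the range of array medians. CMBL 227522_at and TP53INP1 225912_at are higher in both SGI-110 groups, while the dim sets TP53INP1 244721_at and 235602_at, CMBL 230995_at and SPATA18 229331_at are not.

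Over all 13 probe sets of the members, 7 were called higher with SGI-110 against solvent, where 3.72% of the 41091 probe sets were called higher, and 7 with the combination (5.12%). The other TP53INP1 probe sets were dim. 244721_at exceeded the array median on 1 of 12 arrays and changed by −0.01 with SGI-110, and 235602_at exceeded it on 0 and changed by 0.09. Averaging the 3 probe sets therefore lowered the TP53INP1 change to 0.78 (limma adjusted p = 3.47e-06).

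The combination was higher than solvent for 7 of 8 members, CMBL included, where 12.1% of all tested genes were called higher and 17.9% either way. The 3 combination arrays lay all above the solvent arrays for the same 7 members (21.5% of all genes) and all below for SPATA18 (16.9%). The median change of the members was 0.81. The CMBL call was lost after quantile normalization (limma adjusted p = 0.0952), after centring on the tested genes (0.168), without combination array 2 (0.111) or 9 (0.0816), and without solvent array 2 (0.0532), 9 (0.106) or 13 (0.097). Of all calls in this comparison 67.4% were higher. That share depended on the scaling, with 77.3% after centring each array on the median of all probe sets, 35.2% after centring on the median of the tested genes and 54.1% after quantile normalization.

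**Figure D3:**
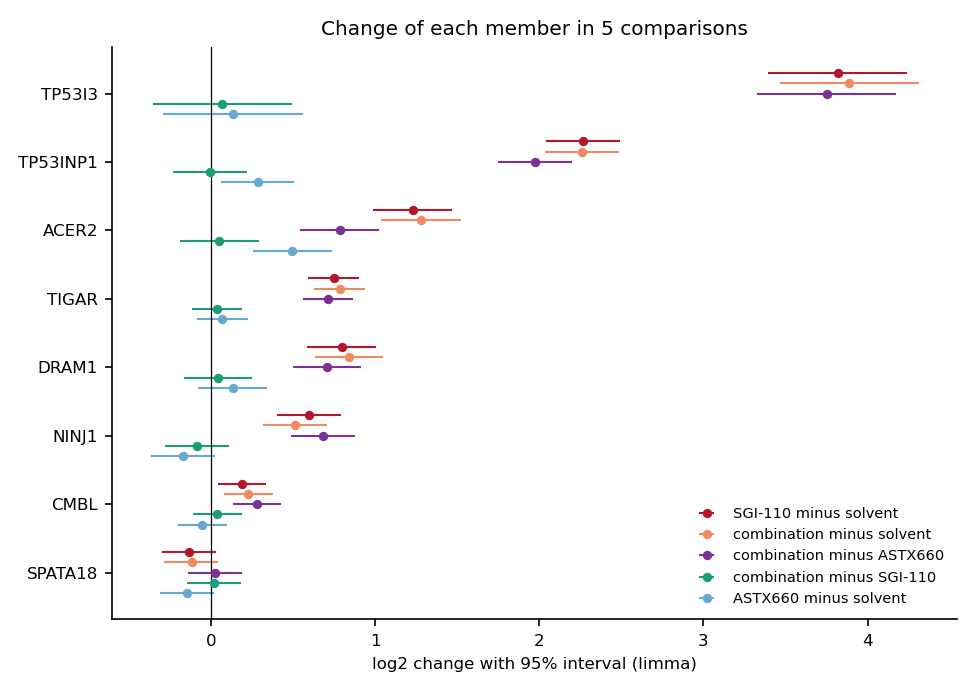
log2 change of each measured member (horizontal axis, limma estimate with 95% interval) in 5 comparisons. The 3 comparisons of a group that got SGI-110 with one that did not have intervals wholly to the right of 0 for TP53I3, TP53INP1, ACER2, TIGAR, DRAM1, NINJ1 and CMBL. Those of CMBL lie close to 0, and its change with SGI-110 alone did not pass the adjusted test. For ACER2 the combination minus ASTX660 (0.78) lies left of the combination minus solvent (1.28). Both use the same combination arrays, so the gap between them is the ASTX660 minus solvent change (0.50). That change did not pass the test (limma adjusted p = 0.632). The intervals of the combination minus SGI-110 include 0 for all 8 members.

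The SGI-110 effect was also read with ASTX660 present on both sides. The combination was higher than ASTX660 alone for 7 of 8 members, where 8.37% of all tested genes were called higher and 16.1% either way. TP53I3 changed by 3.75 (13.5-fold, limma adjusted p = 1.04e-07), TP53INP1 by 1.97 (3.93-fold, limma adjusted p = 1.04e-07), ACER2 by 0.78 (1.72-fold, limma adjusted p = 0.000418) and TIGAR by 0.71 (1.64-fold, limma adjusted p = 3.49e-05). DRAM1 changed by 0.71, NINJ1 by 0.68 and CMBL by 0.28 (limma adjusted p = 0.0138), and SPATA18 stood at 0.03 (limma adjusted p = 0.865). The CMBL call was lost without combination array 2 (limma adjusted p = 0.0564). Between arrays of the same number the SGI-110 difference of TP53I3 was 4.0, 3.14 and 4.31 for numbers 2, 9 and 13 without ASTX660. With ASTX660 on both sides it was 3.90, 3.71 and 3.64, given as a description, since the numbers were not taken to pair those 2 groups. All 6 differences were positive for the other 7 members, whereas SPATA18 had 0 of 3 positive without ASTX660 and 2 of 3 with it.

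**Figure D4:**
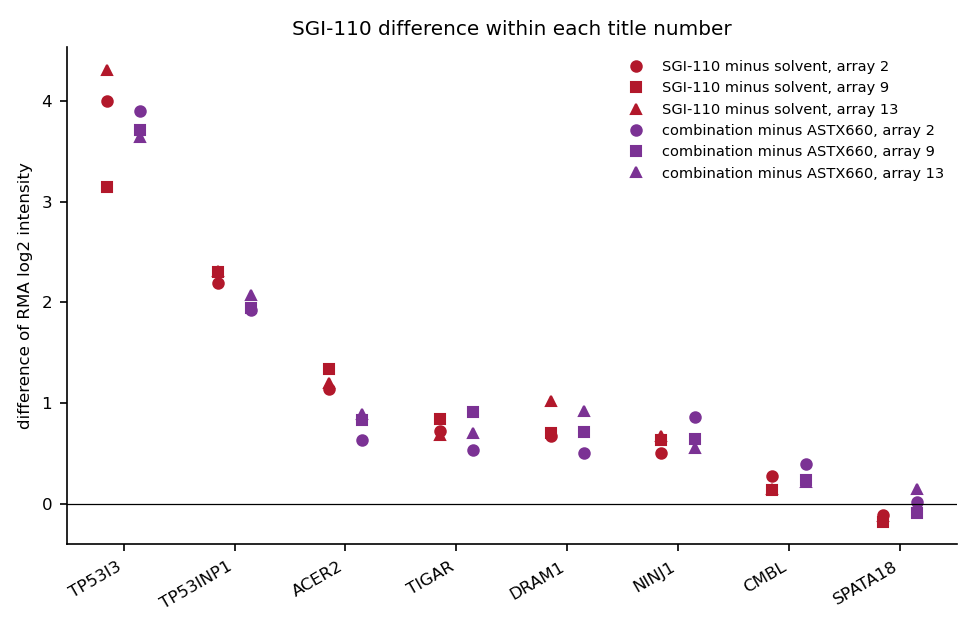
Difference of RMA log2 intensity (vertical axis) between arrays of the same title number, SGI-110 minus solvent in red and combination minus ASTX660 in purple, for the 8 measured members. Symbols stand for numbers 2, 9 and 13. All differences are above 0 except for SPATA18, of which 4 are below. The purple differences describe arrays that share a number and were not taken as pairs.

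No member passed the test with ASTX660 alone. limma called 0 of 8 members and 0 of 12689 genes against solvent, with 2 members and 894 genes (7.05%) at an unadjusted p under 0.05. With the title number as a block it called 1 gene, which was no member. The 2 members were ACER2 at 0.50 (SE 0.112, 1.41-fold, unadjusted p = 6e-04, limma adjusted p = 0.632) and TP53INP1 at 0.28 (SE 0.104, unadjusted p = 0.0163, limma adjusted p = 0.682). These were also the members whose 3 ASTX660 arrays lay above the 3 solvent arrays (2 of 8, against 7.59% of all genes), and NINJ1 and SPATA18 lay below (2 of 8, against 4.68%). Without ASTX660 array 2, which stands apart from the other arrays, ACER2 stood at 0.37 and TP53INP1 at 0.20. The 95% intervals of 7 members lay within 1.5-fold either way, and that of ACER2 reached 0.74.

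Adding ASTX660 after SGI-110 gave no call either. limma called 0 of 8 members and 0 of 12689 genes between the combination and SGI-110 alone, with 0 members and 370 genes (2.92%) at an unadjusted p under 0.05, and the arrays of the 2 groups overlapped for all 8 members. With the title number as a block it called 10 genes, none of them a member. The intervals ran from −0.35 to 0.49 at their widest and lay within 1.5-fold for 8 of 8. The interaction, by which the combination departs from adding up both single agents, was called for 0 of 8 members and 0 genes (1 member and 204 genes at an unadjusted p under 0.05). That member was ACER2 at −0.45 (SE 0.159, unadjusted p = 0.0143, limma adjusted p = 1), and only 5 of 8 intervals lay within 1.5-fold. Averaged over arrays with and without SGI-110, ASTX660 gave ACER2 a change of 0.27 (unadjusted p = 0.00401, limma adjusted p = 0.469), and 0 members and 0 genes were called by limma (1 member and 1063 genes at an unadjusted p under 0.05). A p above the threshold does not show that the groups are equal.

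Each level can be set in an order of groups, in which neighbours count as apart when their arrays do not overlap. For TP53I3, TIGAR and DRAM1 the SGI-110 and combination groups overlapped and stood above ASTX660 and solvent, which overlapped too, and CMBL had the same order with ASTX660 below solvent. TP53INP1 and ACER2 had 3 steps, both SGI-110 groups, then ASTX660, then solvent. NINJ1 had the last pair the other way round. SPATA18 had the 3 treated groups, which overlapped, below solvent. The shares of all tested genes with these orders are not given here, so the orders describe the members only.

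Other p53 targets, a list of 30 genes chosen with earlier results of these data known, moved with the members in SGI-110 against solvent. Of 28 tested, 24 rose and 0 fell, beside 9.5% of all tested genes called higher and 5.9% lower, with a median of 0.72 against 0.00 over all genes. SESN1, which restrains growth signalling under stress, rose by 1.57, the cell cycle inhibitor CDKN1A by 2.33, the p53 antagonist MDM2 by 1.32 and the kinase gene PLK2 by 2.02 (limma adjusted p from 4.68e-08 to 3.5e-07). Of 14 tested regulators of p53, 2 rose and 0 fell, which is near the 9.5% of all tested genes called higher. These were the kinase genes HIPK2 (0.79, limma adjusted p = 0.00333) and PRKCD (0.32, limma adjusted p = 0.0116). The HIPK2 call was lost as a mean over its probe sets (limma adjusted p = 0.0972), and that of PRKCD without SGI-110 array 13 (0.056) or solvent array 9 (0.061). With the combination 23 of the 28 targets rose and 1 fell, beside 12.1% of all tested genes called higher and 17.9% either way, and with ASTX660 alone 0 did either.

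Beyond TP53INP1 and DRAM1, part of the autophagy machinery rose as well. Of 29 core autophagy genes tested, 7 rose and 0 fell with SGI-110, beside 9.5% and 5.9% of all tested genes, with a median of 0.05 (0.00 over all genes). GABARAP, which encodes a protein that is attached to the autophagosome membrane, rose by 0.51 (1.43-fold, limma adjusted p = 0.000125). Its relative MAP1LC3B rose by 0.31 (limma adjusted p = 0.00869), the cargo receptor gene SQSTM1 by 0.30 (limma adjusted p = 0.00215) and NBR1, another receptor, by 0.34 (limma adjusted p = 0.00332, lost as a mean over its probe sets at 0.179). With the combination 9 rose and 0 fell, beside 12.1% of all tested genes called higher. Of 10 tested mitophagy genes, 2 rose, TBK1 (0.37, limma adjusted p = 0.000137) and BNIP3L (0.47, limma adjusted p = 0.00221), and PHB2 fell by 0.16 (limma adjusted p = 0.0169), while PINK1 stood at 0.26 (limma adjusted p = 0.0545, or 0.0141 with the title number as a block). The PHB2 call was lost without SGI-110 array 2 (limma adjusted p = 0.0764) and without solvent array 9 (0.0575) or 13 (0.0568). Over all tested genes 9.5% were called higher and 5.9% lower, and a list of 10 genes is short for such a comparison. With the combination 3 mitophagy genes rose and 1 fell, beside 12.1% of all tested genes called higher and 17.9% either way.

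In the pathway around ACER2, 6 of 18 tested ceramide and sphingosine genes rose and 0 fell with SGI-110 (median 0.12), beside 9.5% and 5.9% of all tested genes. SPHK1, the kinase that turns the product of ceramidases into sphingosine 1-phosphate, rose by 1.01 (SE 0.0956, 2.01-fold, limma adjusted p = 1.69e-05). The sphingomyelin synthase gene SGMS2 rose by 0.73 (limma adjusted p = 0.00355), the phosphatase gene SGPP1 by 0.38 (limma adjusted p = 0.00793) and the acid sphingomyelinase gene SMPD1 by 0.32 (limma adjusted p = 0.0109). SMPD1 stood at −0.02 (limma adjusted p = 0.964) when the probe set with the highest variance was used, and at 0.07 (0.634) as a mean over its probe sets. With the combination 6 rose and 0 fell, beside 12.1% of all tested genes called higher. The title number as a block gave 11 and 0, while it raised the calls over all 12689 genes from 2275 to 3632.

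Around TIGAR, the glycolysis list was mixed. Of 25 genes tested 6 rose and 4 fell with SGI-110 (median −0.03), where 9.5% and 5.9% of all tested genes rose and fell. In the combination 6 rose and 3 fell, beside 12.1% of all tested genes called higher and 17.9% either way. ENO2, an enolase, rose by 1.54 (2.91-fold, limma adjusted p = 0.00034), PFKFB4, an enzyme that makes and removes the same sugar phosphate, by 0.56 (limma adjusted p = 0.00247) and the gluconeogenic phosphatase gene FBP1 by 0.91 (limma adjusted p = 0.00865), while the isomerase gene GPI fell by 0.21 (limma adjusted p = 0.00271). Around FDXR, itself not measured, 0 of 15 tested ferredoxin and iron-sulfur cluster genes rose and 3 fell, beside the same 9.5% and 5.9%. These were the chaperone gene HSPA9 (−0.24, limma adjusted p = 0.00272), GLRX5 (−0.20, limma adjusted p = 0.00386) and BOLA3 (−0.17, limma adjusted p = 0.00495), and HSPA9 stood at −0.03 (limma adjusted p = 0.95) on its probe set of highest variance. A further list held 11 genes set beside the members as relatives, not all of them of the same families. Of these 1 rose, the quinone reductase gene NQO1 (0.27, limma adjusted p = 0.0202), and 1 fell, MIEF1 (−0.21, limma adjusted p = 0.0386), which is near those shares. NINJ2 (0.25, limma adjusted p = 0.095) and VAT1 (0.16, limma adjusted p = 0.0592) did not pass, but did with the title number as a block (0.00732 and 0.026). The NQO1 call was lost without SGI-110 array 9 (limma adjusted p = 0.0852) and without solvent array 2 (0.0631) or 13 (0.0911) and after centring on the tested genes (0.0521), and the MIEF1 call under 11 of 23 alternatives.

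**Figure D5:**
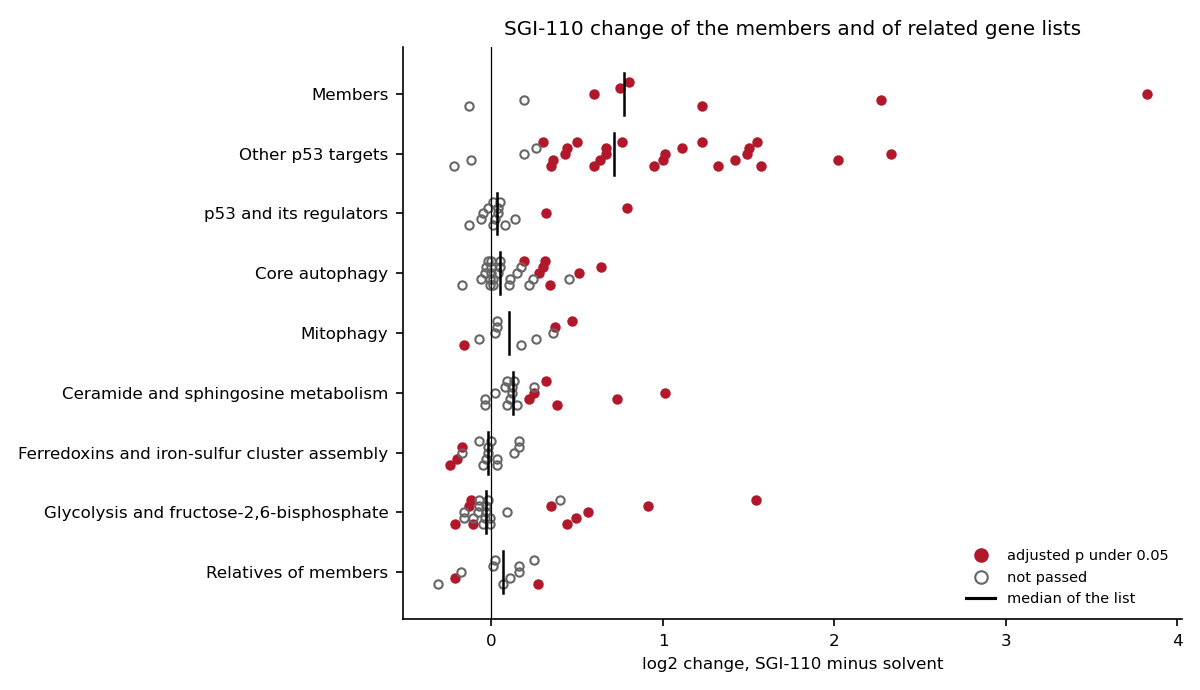
log2 change, SGI-110 minus solvent (horizontal axis), of the members and of 8 related gene lists. Each point is a gene, filled red where the limma adjusted p was under 0.05 and open where it was not, and black lines are list medians. The members and the other p53 targets have medians of 0.77 and 0.72, and the other lists lie between −0.03 and 0.12.

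For each member called in SGI-110 or combination arrays, the gene with the most similar profile was the one at the smallest root mean square distance over the 12 arrays, each value taken relative to the gene's own solvent mean. TP53INP1 lay nearest to CDKN1A (distance 0.122 log2 units) and TIGAR nearest to the apoptosis gene BAX (0.073). The nearest genes were TKTL1, a transketolase relative, for TP53I3 (0.416), PAPSS2, which makes the sulphate donor of the cell, for ACER2 (0.159), and the ubiquitin ligase gene MARCHF2 for DRAM1 (0.0801). BCAP29 was nearest to CMBL (0.0589) and the proton channel gene HVCN1 to NINJ1 (0.0852).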

How the data were processed

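Total RNA of ML-2 cells was labelled with biotin from 100 ng and hybridised to Affymetrix arrays, per the labels' protocols. The authors deposited log2 intensities, which RMA in the affy package had made, per the submitters' processing notes. No source used here gives its version or says if all arrays went through RMA together. The values ran from 2.078 to 14.38. The number of arrays, 3 per group, limits the precision (median standard error 0.085 log2 units for SGI-110 against solvent, 0.12 for the interaction). The arrays are said to come from independent experiments.

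Of 54675 probe sets, 42898 were listed in the platform annotation, 1801 of those carried several symbols or gene identifiers, 6 were control probe sets, and 41091 with 1 symbol were used, of which 41037 matched the RefSeq gene table. A gene was read from its probe set with the highest mean over the 12 arrays and tested when this was above the array's median on 3 arrays or more. Tests used limma 3.58.1 in R 4.3.3 on the log2 values as deposited, with 1 mean per group over all 12 arrays (8 residual degrees of freedom), variances moderated along an intensity trend, and p-values adjusted by Benjamini-Hochberg (threshold 0.05). A second fit took all 41091 probe sets without a brightness filter. The code was tested on simulated data. Folds are ratios of array intensities, which compress large changes of dim probe sets.

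All members are named whatever their values, with up to 4 genes of each list by smallest adjusted p for SGI-110 against solvent and the nearest gene of each called member. Members and lists were chosen with earlier results of these data known. The title numbers were read as experiment numbers. Deviations from the group means of same-numbered arrays correlated at 0.367 to 0.572 for SGI-110 and solvent and 0.15 to 0.541 for the combination and solvent. They correlated at 0.321 to 0.55 for ASTX660 and solvent and 0.208 to 0.544 for the combination and SGI-110, all above 0.1. Between the combination and ASTX660 they correlated at 0.057, 0.158 and 0.539 for numbers 2, 9 and 13. The value for number 2, which involves ASTX660 array 2, fell short of 0.1, so same-numbered differences between those groups were not taken as pairs. A low correlation does not show that the arrays came from different experiments. The main tests paired the arrays in no comparison. The block was used only as an alternative, for the combination and ASTX660 groups as well. Alternatives were other normalizations, filters, probe set rules, variance models, array weights, the block, fits of only the groups compared, and leaving out each array.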

Additional observations from a re-analysis of the deposited data

How the results depend on the processing

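Each of 56 changes (8 members in 7 comparisons) was recomputed under 22 or 23 alternatives. Of 1272 alternative values 1261 stayed on the reported side of the threshold, 8 lost a call, 3 gained one and 0 called changes reversed. All 11 changed calls belonged to CMBL. Besides those given with CMBL in the text, its SGI-110 change was 0.59 as the mean over its probe sets (limma adjusted p = 0.00042) and 1.69 on the probe set of highest variance (limma adjusted p = 8.19e-06), and passed with the replicate block (0.0307). Leaving out any 1 array gave 6 members called for SGI-110 against solvent, 6 to 7 for the combination against solvent and against ASTX660, and 0 for ASTX660 against solvent, the combination against SGI-110, the interaction and the pooled ASTX660 effect. The replicate block changed no other call of a member. PINK1, LYRM4, VAT1 and NINJ2 passed for SGI-110 against solvent under 9, 7, 5 and 2 of 23 alternatives, among them the replicate block. It raised the number of all genes called to 3202 against 1955 for SGI-110, to 3632 against 2275 for the combination and to 3378 against 2038 for the combination against ASTX660, and to 1 for ASTX660 against solvent and 10 for the combination against SGI-110, where 0 were called without it. Without solvent array 9 the first counts were 1239 and 1389, without SGI-110 array 13 the SGI-110 count was 1289, and for the combination against ASTX660 the count was 1310 without combination array 2, 1313 without combination array 13 and 1232 with only the groups compared.

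The lists were recomputed under 23 alternatives, a step added after the data were seen. For SGI-110 the genes called higher ranged from 22 to 25 for other p53 targets, 6 to 8 for core autophagy, 3 to 7 for ceramide genes and 4 to 7 for glycolysis, where 1 to 6 fell. SMPD1 reversed to −0.017 on the probe set of highest variance (limma adjusted p = 0.964) and lost its call as a mean over probe sets (0.065, limma adjusted p = 0.634). Other calls lost were those of HSPA9 on the probe set of highest variance (−0.027, limma adjusted p = 0.95), HIPK2 (limma adjusted p = 0.0972) and NBR1 (0.179) as a mean over probe sets, PRKCD without SGI-110 array 13 (0.056) or solvent array 9 (0.061), PHB2 without an intensity trend (0.0864), without SGI-110 array 2 (0.0764) or without solvent array 9 (0.0575) or 13 (0.0568), NQO1 without SGI-110 array 9 (0.0852) or solvent array 2 (0.0631) or 13 (0.0911) or after centring on the tested genes (0.0521), and MIEF1 under 11 of 23 alternatives (adjusted p 0.00443 to 0.133 over all 23). Centring on the tested genes was added after the data were seen. The causes were not tested.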

Other observations

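The genes next to the members on the chromosome were looked at after the data were seen. Of 16 nearest tested neighbours, 2 for each of the 8 measured members, 1 rose with SGI-110 against solvent and 2 fell, near the 15.4% of all tested genes called either way. The one that rose was CARD19, 8.2 kb from NINJ1 (0.46 log2 units, limma adjusted p = 0.0178). NDUFAF6, which overlaps TP53INP1, fell by 0.25 (limma adjusted p = 0.036), and CCT5, next to CMBL, fell by 0.13 (limma adjusted p = 0.0393). FAM228B, which overlaps TP53I3, stood at 0.04 (limma adjusted p = 0.823), GNPTAB next to DRAM1 at 0.18 (limma adjusted p = 0.277) and RPS6 next to ACER2 at 0.00 (limma adjusted p = 0.953).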
